A study of Homo sapiens with 54 samples.

Results

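Compound Kushen Injection (CKI) is a plant extract mixture used beside chemotherapy in China, and N_2 is CKI from which the alkaloids oxymatrine (Omt) and oxysophocarpine (Ospc) were left out. The 3 libraries of cells given N_2 for 48 h were compared with the 3 libraries of untreated cells (UT) of the same time and the same batch, 6 of the 54 libraries of the series, and all 6 were chosen by their labels alone. N_2 was given at the equivalent of 2 mg/ml of CKI, and UT cells received none, with no vehicle named for them in the labels. All cells were MDA-MB-231, an established human breast cancer line that lacks the estrogen receptor and looks mesenchymal. For direct comparison, 3 libraries each of whole CKI and of N_3, which lacks macrozamin (Mac) as well as Omt and Ospc, were taken at the same dose, time and batch. N_2 and UT after 24 h, 3 libraries each in the same batch, gave the earlier time point. RNA was selected for its poly(A) tail, sequenced in pairs with strand kept, and counted per gene by the authors.

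Oxymatrine is the N-oxide of matrine and oxysophocarpine that of sophocarpine, and the parent alkaloids matrine and sophocarpine stay in N_2. Cells exposed to damaging or foreign compounds draw on several well known programs. Heat shock factor raises chaperones when proteins misfold, the metal sensor MTF1 raises metallothioneins, NRF2 raises enzymes against electrophiles and oxidants, and ATF4 raises genes for amino acid supply and stress arrest. The aryl hydrocarbon receptor (AhR) raises CYP1 enzymes upon binding aromatic compounds. Entry into the cell cycle is held back by CDK inhibitors such as p21, and E2F and its partners drive the genes for DNA synthesis and mitosis.

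Total counts were 22033415 to 24708584 in the 3 UT libraries and 20073324 to 23459243 in the 3 N_2 libraries at 48 h. The 10 most abundant genes took 4.96 to 5.21% of the counts in UT and 7.16 to 7.53% in N_2. Genes of the HIST family, whose usual transcripts carry no poly(A) tail, took 0.0147 to 0.0156% in UT and 0.0979 to 0.102% in N_2. The 9 markers of the line were all detected, with a summed level of 6237 to 6460 TMM-scaled counts relative to library size (CPM) in UT and 3484 to 3526 CPM in N_2, and 6 of them fell while 2 rose. The 7 breast markers known to be low or absent in the line summed to 163 to 170 CPM in UT and 88.9 to 93.7 CPM in N_2. In UT, ERBB2 stood at 105.2 to 112.0, GATA3 at 32.5 to 33.4 and EPCAM at 18.2 to 21.0 CPM, and 2 of the 7 were under 1 CPM in every library. Fibroblast markers summed to 112 to 117 CPM in UT and 93.4 to 99.8 CPM in N_2, with POSTN at 0 in all 6 libraries. Immune markers summed to 21.5 to 26.2 and 24.5 to 28.6 CPM with CD3E at 0, and endothelial markers to 7.96 to 8.99 and 10.5 to 11.5 CPM. Markers of embryonic kidney cells summed to 17.9 to 21.3 CPM in UT and 51.2 to 58.5 CPM in N_2, with 6 of the 7 under 1 CPM in every library and LIN28B at 0. The part of these shifts in the results was not tested. N_2 replicate 3 at 24 h and N_3 replicate 2 at 48 h stood apart from their group, and where a call changed without one of them, or a printed list count moved by over 1.5 times, both values are given.

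After 48 h of N_2, 12011 of the 14932 genes tested (80.4%) were DE at an adjusted p-value under 0.05 from edgeR's quasi-likelihood test. Of these, 5981 (40.1%) were higher and 6030 (40.4%) lower than in UT. A log2 fold change of at least 1 in size was also reached by 5015 genes (33.6%), of which 2739 (18.3%) were higher and 2276 (15.2%) lower. The most strongly changed genes were mostly higher, since 1070 DE genes had a log2 fold change of 2 or more and 538 had one of -2 or less. The median over all genes tested was 0.00696. The 3 N_2 libraries did not overlap the 3 UT libraries in 12129 genes (81.2%). With 3 against 3 libraries, an exact permutation test of a single gene cannot give a two-sided p below 0.10, so calls rest on the fit across all genes. In bulk RNA of this kind, fewer cells of a type and less RNA per cell cannot be told apart.

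**Figure D1:**
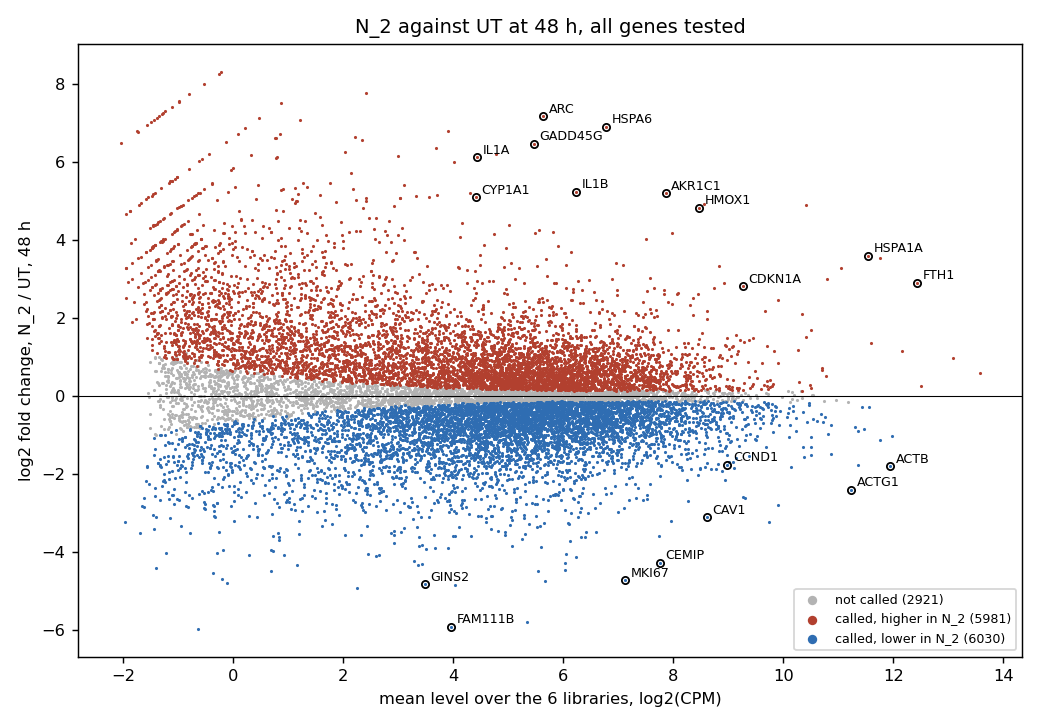
Each point is 1 of the 14932 genes tested, with its mean level over the 6 libraries in log2(CPM) on the horizontal axis and its log2 fold change, N_2 over UT at 48 h, on the vertical axis. Red and blue points were DE (called), and ARC, HSPA6 and GADD45G sit at 7.16, 6.89 and 6.46 while FAM111B sits at -5.92.

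The leading genes were chosen among those averaging 10 CPM or more, DE whichever library was left out and without overlap of the groups. The 12 that rose most were ARC, HSPA6, HSPA7, GADD45G, CD7, S100P, IL1A, HES7, IL1B, AKR1C1, AOC2 and C11orf96. ARC, an immediate early gene first known from neurons, stood at 0.719, 0.782 and 0.523 CPM in the 3 UT libraries and at 110.4, 85.8 and 94.6 CPM in the 3 N_2 libraries, a log2 fold change of 7.16 ± 0.14 (SE). Log2 fold changes are given in the same way, in parentheses after the levels, from here on. HSPA6, a heat shock protein 70 that is nearly silent in unstressed cells, stood at 1.68, 1.7 and 2.05 CPM in UT and 256, 182 and 202 CPM in N_2 (6.89 ± 0.13). GADD45G, a stress-induced growth arrest gene, stood at 1.04, 0.874 and 1 CPM and 94.1, 75.8 and 86.7 CPM (6.46 ± 0.13). In each of the 3, the lowest N_2 library lay far above the highest UT library, although no overlap was already required by the choice. HSPA7 (6.80) is a near copy of HSPA6, and reads of the pair may have been shared between them in counting. The other rises ranged from 5.14 for C11orf96 to 6.35 for CD7, a surface protein best known from T cells.

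Among the 12 genes that fell most were FAM111B, LGALS12, SPC25, GINS2, KIF20A, MKI67, TYMS, CLDN2, PLEKHS1, KDELC2 and CEMIP. FAM111B, a protease gene that peaks in S phase, stood at 32.01, 29.4 and 29.3 CPM in UT and 0.65, 0.361 and 0.473 CPM in N_2 (-5.92 ± 0.15). MKI67, which encodes the proliferation antigen Ki-67, stood at 292, 258 and 246 CPM and 11.3, 8.86 and 9.74 CPM (-4.73 ± 0.089). CEMIP, a hyaluronan-degrading factor linked to invasion, stood at 424, 386 and 399.9 CPM and 18.9, 20.9 and 22.3 CPM (-4.27 ± 0.076). That the groups did not overlap for any of them was required by the choice, and the same held for 81.2% of all genes tested. SPC25, GINS2, KIF20A, MKI67 and TYMS belong to the machinery of DNA synthesis or mitosis. LGALS12, a galectin, fell from 78 ± 6.05 CPM (SD, n = 3) to 1.38 ± 0.347 CPM (-5.80 ± 0.12). The largest adjusted p among these rises and falls was 6.7e-17 from edgeR's quasi-likelihood test.

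**Figure D2:**
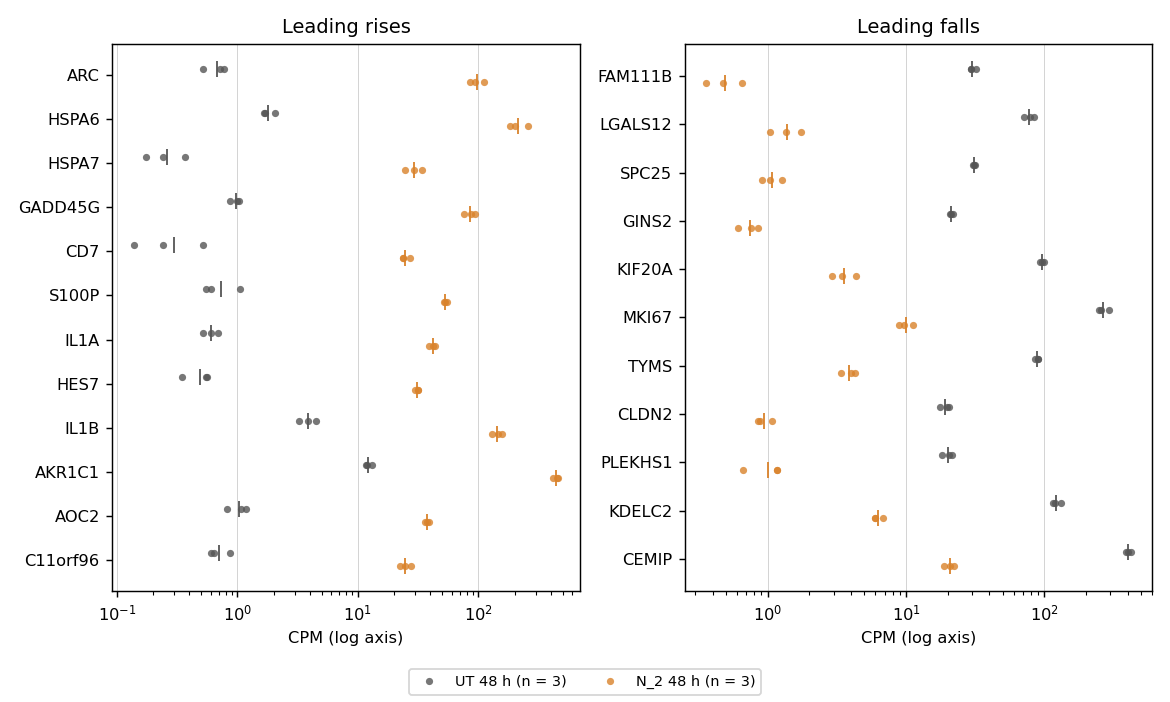
Level in CPM (log axis) of the 12 genes that rose most and of genes among the 12 that fell most, with 1 point for each of the 3 UT libraries (grey) and 3 N_2 libraries (orange) at 48 h and a tick at each mean. No gene's UT and N_2 points overlap, as the choice of genes required, and ARC moves from 0.523 to 0.782 CPM up to 85.8 to 110.4 CPM.

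The promoters of HSPA6, from the leading rises, and of 3 genes from the groups described next are shown. Each holds the motif, or for CYP1A1 only the core letters of the motif, of a factor known for its response. The sequences are RefSeq windows of 300 bases, from 250 before to 50 after the start of the gene, on build GRCh38.p14, written along the gene's own strand with the motif in capitals. HSPA6 (chr1:161524290-161524589, plus strand) holds a heat shock element, MT1X (chr16:56682220-56682519, plus strand) 4 metal response elements, and ACTG1 (chr17:81512750-81513049, minus strand) a CArG box, the site bound by SRF. CYP1A1 (chr15:74725479-74725778, minus strand) holds GCGTG, the core letters of the dioxin response element. These letters alone also stand in 40.6% of all genes, and whether AhR binds this stretch was not tested.
HSPA6: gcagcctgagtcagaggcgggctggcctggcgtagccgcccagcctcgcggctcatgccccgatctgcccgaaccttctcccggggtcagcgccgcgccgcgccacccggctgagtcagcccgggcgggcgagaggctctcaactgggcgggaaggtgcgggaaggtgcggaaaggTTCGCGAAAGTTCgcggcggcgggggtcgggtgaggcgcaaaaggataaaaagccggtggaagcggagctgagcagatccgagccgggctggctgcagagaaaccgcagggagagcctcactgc
MT1X: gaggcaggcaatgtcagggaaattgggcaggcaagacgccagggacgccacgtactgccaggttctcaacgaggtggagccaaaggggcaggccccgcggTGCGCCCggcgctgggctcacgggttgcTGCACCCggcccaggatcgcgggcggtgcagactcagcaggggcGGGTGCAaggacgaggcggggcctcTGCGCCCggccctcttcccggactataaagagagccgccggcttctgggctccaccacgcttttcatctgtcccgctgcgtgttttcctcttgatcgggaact
CYP1A1: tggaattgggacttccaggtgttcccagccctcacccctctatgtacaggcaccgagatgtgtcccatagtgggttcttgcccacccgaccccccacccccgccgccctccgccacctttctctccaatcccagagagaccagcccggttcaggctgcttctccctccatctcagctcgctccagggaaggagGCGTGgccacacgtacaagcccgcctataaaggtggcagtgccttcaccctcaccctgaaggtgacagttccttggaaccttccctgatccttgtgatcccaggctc
ACTG1: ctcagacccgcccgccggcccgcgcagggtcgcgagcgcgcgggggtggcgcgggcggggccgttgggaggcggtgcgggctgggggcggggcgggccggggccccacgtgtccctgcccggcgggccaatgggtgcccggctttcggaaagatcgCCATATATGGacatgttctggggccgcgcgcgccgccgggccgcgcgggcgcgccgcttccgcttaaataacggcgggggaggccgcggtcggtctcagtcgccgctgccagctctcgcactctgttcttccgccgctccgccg

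The first capital of the motif lay 74 bases before the start in HSPA6, 57 in CYP1A1 and 94 in ACTG1, and the 4 motifs of MT1X began 150 to 53 bases before it. The motifs were searched on both strands, and a gene counted as holding one if any of its windows did. The heat shock element was spelled as GAA, TTC and GAA in turn with NN between neighbours, and 5 of 12 promoters of the chaperone list, which does not include HSPA6, held it (41.7%), against 0.608% of the promoters of all 27305 genes. Those 5 were of HSPA8, HSP90AA1, HSP90AB1, DNAJA1 and HSPD1, and these letters were not in the windows of HSPA1A, HSPA1B and DNAJB1. The metal response element was spelled TGCACNC or TGCGCNC and stood in all 4 of the promoters found for metallothioneins and the zinc exporter SLC30A1, against 33.4% of all genes. GCGTG stood in 7 of 10 promoters of AhR targets (70%) against 40.6%, the antioxidant response element TGACNNNGC in 7 of 21 of NRF2 targets (33.3%) against 16.1%, and the CArG box in 6 of 31 of the actin and SRF group (19.4%) against 1.6%. These shares are descriptions of the windows, and the heat shock and metal motifs were added after the expression values had been seen.

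Metallothioneins, small proteins that bind zinc and copper, rose together after N_2. All 6 tested members of that group, including SLC30A1, were higher, with a median log2 fold change of 3.76. MT1X, whose promoter is shown above, stood at 23.2, 23.97 and 24.1 CPM in UT and 757, 676 and 700.3 CPM in N_2 (4.91 ± 0.072). MT1F stood at 4.84, 4.74 and 4.27 CPM and 86, 80.4 and 83.6 CPM (4.18 ± 0.086). Every N_2 library lay far above every UT library for both, although MT1 genes are close copies whose reads the counting may have split. Among 13 chaperones and co-chaperones, 8 were higher and 2 lower, but the changes sat on a few genes, as the median was 0.18. HSPA1A, the stress-inducible heat shock protein 70, stood at 419, 459.5 and 467 CPM and 6273, 4543 and 5315 CPM (3.59 ± 0.090), and its near copy HSPA1B rose by a log2 fold change of 3.53. DNAJB1, a co-chaperone that works with them, rose by 1.28. HSPA8, the constitutive member of the family, stood at 1377, 1298 and 1234 CPM in UT and 1356, 1243 and 1146 CPM in N_2, and the groups overlapped (edgeR adjusted p = 0.45).

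Of 29 NRF2 targets tested, 20 were higher and 6 lower, with a median of 0.74. HMOX1, which breaks down heme, stood at 21.4, 25.9 and 24.7 CPM in UT and 754, 640.3 and 620.0 CPM in N_2 (4.82 ± 0.088). AKR1C1, an aldo-keto reductase, stood at 11.7, 13.2 and 11.8 CPM and 462, 414 and 453 CPM (5.19 ± 0.079), and its near copy AKR1C2 rose by 3.83. FTH1, the ferritin heavy chain that stores iron, rose from 1294 ± 48.3 to 9543 ± 387 CPM (SD, n = 3), a log2 fold change of 2.89. GCLM, a subunit of the enzyme that starts glutathione synthesis, rose by 1.78. NQO1, a quinone reductase often taken as the textbook target of both NRF2 and AhR, went the other way, from 171, 178 and 178 CPM in UT to 148, 145 and 134 CPM in N_2 (-0.29 ± 0.060). NQO1 was lower in every N_2 library than in any UT library, and the groups did not overlap in 81.2% of all genes tested.

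Among 10 AhR targets tested, 8 were higher and 1 lower, with a median of 0.81. CYP1A1, which oxidises aromatic hydrocarbons, stood at 1.32, 1.2 and 1.05 CPM in UT and 42, 37.8 and 41.5 CPM in N_2 (5.09 ± 0.12), and AHRR, the repressor of the receptor, rose by 2.72. TIPARP, another inhibitor of AhR, rose by 1.95 and CYP1B1 by 0.92. The member that fell was NQO1, described above.

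Leaving aside subgroups such as the metallothioneins, the ATF4 and CHOP group had the highest median of the lists, 1.93, with 19 of 23 tested genes higher and 3 lower. ATF3, a transcription factor of the stress response, stood at 8.27, 8.05 and 8.49 CPM in UT and 91.2, 91.6 and 95.6 CPM in N_2 (3.50 ± 0.077). DDIT3, which encodes CHOP, stood at 22.02, 23.3 and 21.3 CPM and 83.7, 81.6 and 86.3 CPM (1.93 ± 0.069). The N_2 libraries of each gene lay close together and far from UT. CEBPB rose by 2.76, the cystine transporter SLC7A11 by 2.72, NUPR1 by 2.66 and the pseudokinase TRIB3 by 2.11. In the list of endoplasmic reticulum (ER) chaperones and folding genes, 13 of 21 were lower and 7 higher, with a median of -0.57. HSP90B1, an abundant chaperone of the ER lumen, stood at 986, 953 and 939.8 CPM and 410.2, 461 and 462 CPM (-1.10 ± 0.062), CRELD2 fell by 1.57 on the log2 scale and PDIA4 by 1.14. HSPA5, the master chaperone BiP, rose slightly, from 1266 ± 39.5 to 1529.9 ± 73.2 CPM (SD, n = 3), as did XBP1 (0.17). ERN1, the sensor that splices XBP1, rose by 2.15, the largest change of the list.

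Secreted cytokines were among the strongest rises. Of 18 cytokines and chemokines tested, among 26 listed, 14 were higher and 3 lower, with a median of 1.29, and 9 of the 10 interleukins and colony stimulating factors tested were higher. On the lower side, 2 members fell by at least 1 on the log2 scale, and the lowest value was -3.13, for a chemokine. IL1B stood at 3.28, 3.86 and 4.53 CPM in UT and 129, 147 and 156 CPM in N_2 (5.22 ± 0.11). IL1A stood at 0.599, 0.69 and 0.523 CPM and 39.2, 43.9 and 42.4 CPM (6.11 ± 0.14). Both encode forms of interleukin 1 and are leading rises, whose choice required that the groups not overlap. IL24 rose by 4.38 and CCL26, an eosinophil attractant, by 3.99. IL6 stood at 15.5, 14.8 and 16.5 CPM and 67.8, 88.9 and 88.1 CPM (2.39 ± 0.096), and the neutrophil attractant CXCL8 at 25.2, 26.7 and 25.9 CPM and 66.97, 119 and 126 CPM (2.02 ± 0.15). CXCL8 had the widest spread of these, with N_2 replicate 1 well below the other N_2 libraries but still above UT.

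Receptors and the JAK-STAT pathway moved both ways, 13 of 39 higher and 18 lower, with a median of -0.12. The share DE was 79.5%, near the 80.4% of all genes. IL6R, the ligand-binding chain for IL6, stood at 0.44, 0.506 and 0.523 CPM in UT and 15.6, 14.8 and 12.7 CPM in N_2 (4.87 ± 0.18). TNFRSF1B, a TNF receptor, rose by 2.25, and TNFAIP3, an inhibitor of NF-kB, by 2.60. STAT6, which transmits interleukin 4 signals, stood at 131, 128 and 123 CPM and 27.7, 40.9 and 34.4 CPM (-1.88 ± 0.093), and SOCS3, a feedback inhibitor of the pathway, fell by 1.34 on the log2 scale. Interferon-stimulated genes were mostly lower, 22 of 35 against 9 higher, with a median of -0.46. IFITM3 changed by -1.53 and the tether BST2 by -1.26, while RSAD2 (viperin) rose by 2.01 and the exonuclease ISG20 by 1.51, and PARP9 changed by -1.47.

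Of 30 EGFR family genes and ERK-responsive genes tested, 18 were higher and 10 lower, with a median of 0.36, and all 7 of the immediate early genes of the AP-1 and EGR1 kind were higher. FOSB, an AP-1 subunit, stood at 2.8, 2.94 and 3.53 CPM in UT and 32.03, 28.1 and 31.1 CPM in N_2 (3.31 ± 0.11). DUSP5, a nuclear phosphatase of ERK, rose by 2.49 and IER3 by 2.09, while DUSP6, the cytoplasmic phosphatase of ERK, fell by 1.12 on the log2 scale. The receptors EGFR and ERBB3 rose by 1.03 and 1.69. ERBB2, a receptor of the same family, went the other way. It stood at 107.9, 105.2 and 112.0 CPM in UT and 40.1, 36.6 and 40.7 CPM in N_2. In the list, 8 DE genes rose and 5 fell by at least 1 on the log2 scale, the lowest at -3.69.

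All 36 genes of the mitosis list were lower, with a median of -2.49, as were 34 of the 36 genes of DNA replication, with a median of -2.08. PLK1, a kinase that drives mitosis, stood at 145, 154 and 159.9 CPM in UT and 12.8, 12.3 and 11.7 CPM in N_2 (-3.62 ± 0.073). TOP2A, which untangles sister chromatids, stood at 415, 378 and 376 CPM and 34.6, 29.7 and 31.4 CPM (-3.60 ± 0.072). KIF20A, a kinesin of cytokinesis, changed by -4.74, BIRC5 (survivin) by -3.61, CDK1 by -3.27 and its partner CCNB1 by -2.98. Every library of N_2 held less of each than every library of UT, beside 81.2% of all genes tested in which the groups did not overlap.

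The deepest falls of the replication list were in GINS2, a subunit of the replicative helicase, and in enzymes that make DNA precursors. TYMS, which makes thymidylate, stood at 89.8, 89.6 and 85.6 CPM in UT and 4.03, 3.37 and 4.3 CPM in N_2 (-4.50 ± 0.092). RRM2, the regulated subunit of ribonucleotide reductase, changed by -4.04, and all 5 genes of nucleotide supply fell, with a median of -4.04. All 6 MCM helicase genes fell as well, MCM6 by 2.96 on the log2 scale, and PCNA, the sliding clamp, by 2.19. The single member that rose, named after its value was seen, was ORC1 at 15.1, 15.05 and 13.7 CPM in UT and 18.9, 16.1 and 17.4 CPM in N_2 (0.26 ± 0.091, edgeR adjusted p = 0.011), and the call was lost without UT replicate 3 (log2 fold change 0.21) or N_2 replicate 1 (0.21).

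Of 24 genes for homologous recombination and the Fanconi pathway, 21 were lower and 2 higher, with a median of -1.58. BRIP1, a helicase that works with BRCA1, stood at 26.7, 21.9 and 22.2 CPM and 1.3, 1.68 and 1.7 CPM (-3.91 ± 0.14). RAD51AP1, a recombination factor, changed by -3.90, the nuclease EXO1 by -2.72, BRCA1 by -2.05 and UBE2T, the ubiquitin-conjugating enzyme of the Fanconi pathway, by -2.26.

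The genes that gate entry into the cycle were mixed, with 12 of 20 lower and 5 higher and a median of -0.26. CDKN1A, the inhibitor p21, stood at 146, 153 and 157 CPM in UT and 1102, 1044 and 1017 CPM in N_2 (2.80 ± 0.062). CDKN1C, the inhibitor p57, stood at 46.9, 62.3 and 67.6 CPM and 468, 332 and 353 CPM (2.72 ± 0.11). For both inhibitors the groups lay far apart, whereas CDKN2C (p18) changed by -2.40. CCND1 (cyclin D1) stood at 806, 739 and 767 CPM and 233, 223 and 216 CPM (-1.77 ± 0.060) and CCNE2 (cyclin E2) changed by -3.84. MYC rose by 0.48.

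Beside CDKN1A, the growth arrest genes GADD45A and GADD45B rose by 2.61 and 2.59, and SESN2, which ATF4 drives, by 2.09. The BCL2 family and death receptors were evenly divided, 11 of 25 higher and 11 lower. The death receptor TNFRSF10A rose by 1.47 and the BH3-only gene BBC3 (PUMA) by 1.44, while the survival genes BCL2L2 and BCL2 changed by -1.54 and -1.45.

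Of 36 tested genes of the actin and SRF list, 29 were lower and 3 higher, with a median of -0.90. ACTB, cytoplasmic beta actin, stood at 5724, 6089 and 6215 CPM in UT and 1718, 1739.6 and 1669 CPM in N_2 (-1.80 ± 0.059). ACTG1, gamma actin, whose CArG box is shown above, stood at 3758, 3982 and 4197 CPM and 746, 722 and 765 CPM (-2.41 ± 0.063). These are among the most abundant transcripts of the cells, and pseudogene copies of both may take a share of their reads. DIAPH3, a formin that extends actin filaments, changed by -3.53, IQGAP3 by -2.62 and MYL9, a myosin light chain, by -2.09. SRF itself stood at 184, 197 and 204 CPM and 190.2, 176 and 180.1 CPM, an overlap between the groups (edgeR adjusted p = 0.17).

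Adhesion genes were also mostly lower, 20 of 29 against 7 higher, with a median of -0.46. CAV1, the coat protein of caveolae, stood at 708, 692 and 665 CPM in UT and 86.1, 75.4 and 76.04 CPM in N_2 (-3.11 ± 0.067). THBS1, a secreted matrix protein, stood at 1117, 1000.3 and 1017 CPM and 172, 168 and 172 CPM (-2.60 ± 0.063). PARVA, which ties integrins to actin, changed by -2.65. The integrin subunits went both ways, 6 of 11 lower and 5 higher. ITGB4, the hemidesmosome integrin, changed by -2.16 and ITGB1, the common beta chain, by -1.30, while LAMB3, a chain of laminin 332, rose by 1.15.

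Of 20 YAP and TEAD genes, 15 were lower and 5 higher, with a median of -0.47. NT5E (CD73) changed by -2.08, CRIM1 by -1.89 and the receptor kinase AXL by -1.60, and ARHGEF17 by -1.19. CYR61, the target most used to read YAP activity, stood at 1297, 1333 and 1389.9 CPM and 1494, 1472 and 1605 CPM, slightly higher after N_2 (0.19 ± 0.059). YAP1 changed by -0.14 (edgeR adjusted p = 0.032), and that call was lost with RLE size factors (-0.13), library sizes alone, DESeq2, a filter on mean CPM, the fit of 18 libraries and without several of the libraries in turn.

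Matrix proteases and hyaluronan genes were split, with 14 of 27 higher and 9 lower and a median of 0.16. MMP1, interstitial collagenase, stood at 9.67, 8.88 and 8.88 CPM in UT and 60.9, 71.03 and 70.5 CPM in N_2 (2.89 ± 0.087). PLAU, urokinase, stood at 306, 311 and 309 CPM and 47.2, 57.04 and 53.4 CPM (-2.54 ± 0.071). SERPINE2, an inhibitor of urokinase, rose by 2.45, so that protease and inhibitor moved in opposite directions. Among cadherins and regulators of the epithelial to mesenchymal transition, 6 of 17 were higher and 6 lower, or 70.6% DE against 80.4% of all genes. CLDN1, a tight junction protein, stood at 3.08, 3.63 and 3.35 CPM and 37.8, 42.7 and 40.8 CPM (3.60 ± 0.10), and SNAI1 (Snail), which represses epithelial genes, at 3.72, 4.14 and 3.96 CPM and 45.8, 36.6 and 37.9 CPM (3.36 ± 0.11). CDH11, a mesenchymal cadherin, vimentin (VIM) and the claudin CLDN4 changed by -1.55, -0.93 and 1.35. Of the TGF-beta and BMP genes, 12 of 24 were lower and 7 higher, with a share DE of 79.2%, near that of all genes. ID2, an inhibitor of differentiation, rose by 5.09, SMAD7 and SKIL, both brakes on the pathway, by 2.03 and 1.64, and the ligand TGFB1 by 1.00, while the receptor TGFBR2 changed by -1.07 and LTBP2, a latent TGF-beta binding protein, by -1.60.

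The sterol and fatty acid arms of lipid synthesis moved apart. Of the 18 enzymes of sterol synthesis 13 were higher and 3 lower, with a median of 0.66, and all 7 enzymes of fatty acid synthesis were lower, with a median of -1.06. MSMO1, an enzyme of sterol demethylation, stood at 131, 125 and 126 CPM in UT and 399, 429 and 389 CPM in N_2 (1.68 ± 0.061). FASN, fatty acid synthase, stood at 1474, 1425 and 1506 CPM and 700.1, 699 and 696 CPM (-1.06 ± 0.057). SREBF1, the factor that drives the fatty acid arm, changed by -1.43 and the desaturase FADS2 by -1.33. These arms were set apart after the first results had been seen.

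Of 21 LXR and PPAR targets, 12 were higher and 4 lower, with a median of 0.39, and 76.2% were DE against 80.4% of all genes. ANGPTL4, a secreted inhibitor of lipoprotein lipase, stood at 2.24, 3.17 and 3.18 CPM and 48.6, 50.8 and 49.9 CPM (4.14 ± 0.11). CREB3L3 rose by 4.99, PDK4, which turns cells from glucose to fat, by 3.13 and PLIN2, the coat of lipid droplets, by 2.75. The sterol exporters ABCG1 and ABCA1 moved apart, by 2.22 and -0.40.

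Glycolysis and hypoxia genes were divided, 17 of 32 lower and 13 higher, with a median of -0.21, but 11 of the 16 glycolytic enzymes were lower. ENO1, enolase, changed by -1.12 and PFKL, a phosphofructokinase, by -1.53, while the angiogenic factor VEGFA stood at 285, 282 and 300.4 CPM in UT and 1261, 1276 and 1379.7 CPM in N_2 (2.18 ± 0.062) and ADM (adrenomedullin) rose by 2.22. HIF1A changed by -0.46 and PFKFB3, which sets the level of the activator of phosphofructokinase, by 1.19. Of the ribosome biogenesis genes 19 of 29 were lower and 7 higher, with a median of -0.37. UTP20, which processes ribosomal RNA, changed by -2.74, CAD, which starts pyrimidine synthesis, by -1.34 and nucleolin (NCL) by -0.84, with SRM and BOP1 at -1.31 and -1.02.

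Lysosome and autophagy genes were higher in 19 of 29 cases and lower in 4, with a median of 0.32 and a share DE of 79.3%, near the 80.4% of all genes. SQSTM1, the cargo receptor p62, stood at 629, 686 and 702 CPM and 2185, 2101 and 2179 CPM (1.69 ± 0.061), GABARAPL1, which coats autophagosomes, rose by 2.15, the lysosomal enzyme GLA by 1.83 and CTSD (cathepsin D) by 0.24, while MAP1LC3B (LC3B) changed by 1.47. Of 17 clock genes, 11 were higher and 2 lower, with a median of 0.70, and 76.5% were DE against 80.4% of all genes. NR1D1 (REV-ERB alpha), a repressor within the clock, stood at 12.1, 14.5 and 14.3 CPM and 111, 98.5 and 92.4 CPM (2.89 ± 0.084), and PER1, DBP and ARNTL (BMAL1) rose by 2.37, 1.82 and 1.56, while NFIL3 changed by 1.65. Drug efflux pumps and conjugating enzymes were split, with 6 of 16 higher and 7 lower, or 81.25% DE against 80.4% of all genes. The pumps ABCG2 and ABCC5 rose by 2.04 and 1.07, while MGST2 changed by -1.02.

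**Figure D3:**
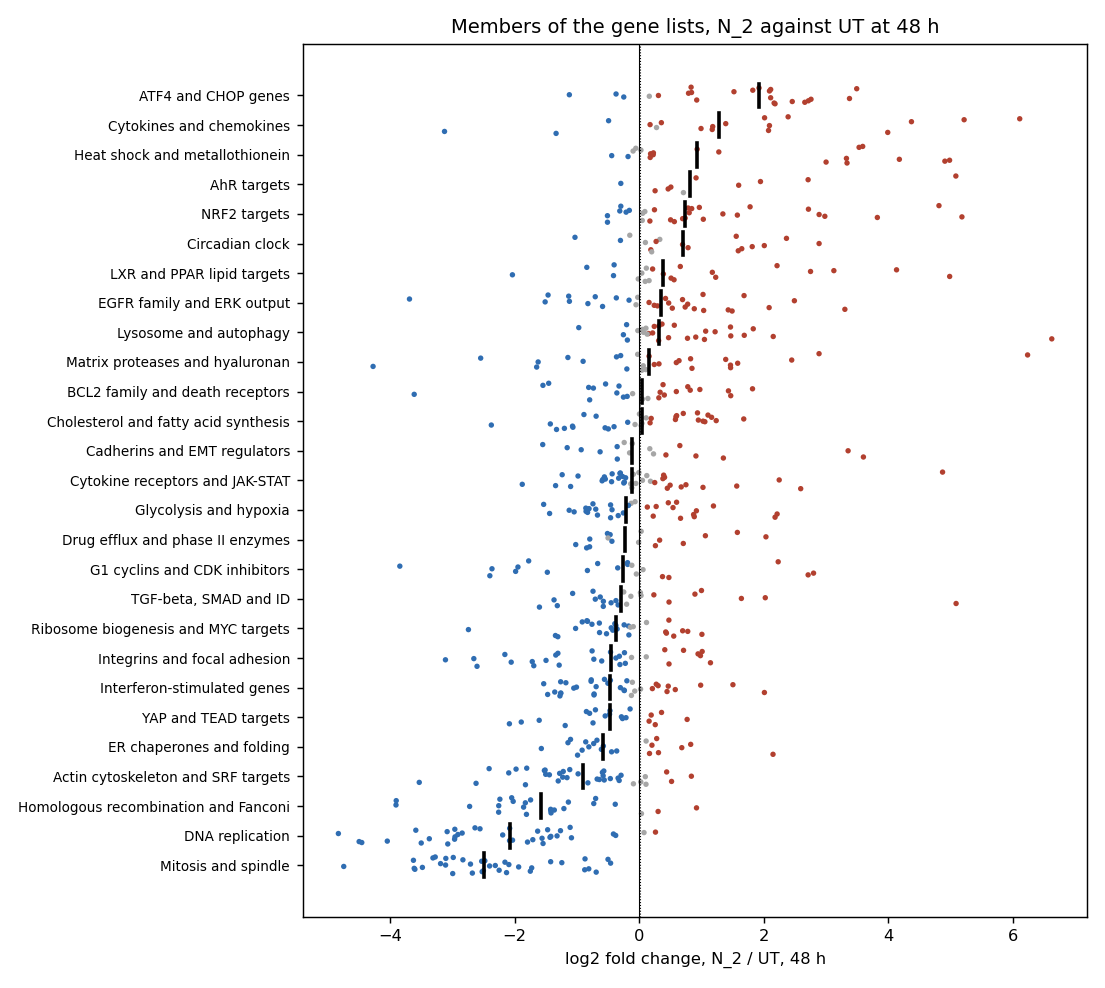
Each point is a tested gene of 1 of the lists, placed by its log2 fold change, N_2 over UT at 48 h, with red for higher, blue for lower and grey for not DE, and the bar marks the median of the list. Medians run from 1.93 for ATF4 and CHOP genes to -2.49 for mitosis and spindle genes.

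The study drew a list of 140 migration related genes from earlier publications. Of the 125 tested, 95 were DE after N_2 (76%, against 80.4% of all genes), 35 higher and 60 lower, with a median of -0.13. WNT11, a ligand of noncanonical WNT signaling, rose by 4.81 and the water channel AQP11 by 2.67, with TNS2 and AQP5 at -2.59 and -2.46. Of the study's 14 core genes, 13 were tested and 11 were lower, with none higher and a median of -0.72. These were picked among DE genes of these cells, so their count is not independent evidence. AKT1, a growth and survival kinase, stood at 314, 329.7 and 352 CPM in UT and 97.4, 96.8 and 97.1 CPM in N_2 (-1.76 ± 0.062). Beside CCND1, the values were -1.16 for CTNNB1 (beta-catenin), -0.83 for RB1, -0.67 for CDK4, -0.59 for JAK2, -0.40 for AKT2 and -0.23 for APC. The call of APC (edgeR adjusted p = 0.022) was lost under several settings, for example with library sizes alone (-0.16). CDH1 (E-cadherin) stood at 6.47, 6.21 and 6.62 CPM and 5.94, 5.25 and 5.06 CPM (edgeR adjusted p = 0.09), and PIK3CA at 33.8, 30.1 and 30.8 CPM and 33.8, 29.6 and 28.3 CPM (adjusted p = 0.65), so that neither was DE. ESR1 had too few counts for a test.

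N_2 was then compared with whole CKI at the same dose and time, in a fit that used no untreated library, to ask where leaving out Omt and Ospc went with another expression level. Between them 11672 of 15010 genes (77.8%) were DE, 5749 (38.3%) higher with N_2 and 5923 (39.5%) lower. With a log2 fold change of at least 1 in size, 4113 (27.4%) were DE, 2195 (14.6%) higher and 1918 (12.8%) lower. The 5 genes that were highest with N_2 relative to CKI were HSPA6, HSPA7, S100P, ARC and GADD45G. HSPA6 stood at 0.873, 1 and 0.627 CPM in the 3 CKI libraries, below the 3 UT libraries, against 213 ± 38.3 CPM (SD, n = 3) with N_2, a log2 difference of 7.98 ± 0.15 (SE). ARC stood at 1.25, 1.25 and 1.06 CPM with CKI (6.35) and GADD45G at 1.21, 0.824 and 1.37 CPM (6.24), both close to UT, and the differences were 6.94 for HSPA7 and 6.75 for S100P. HSPA1A stood at 403, 378 and 397 CPM with CKI (3.78), MT1X at 71.9, 71.3 and 67.5 CPM (3.34) and HMOX1 at 36.8, 30.6 and 32.04 CPM (4.34). Of the heat shock and metallothionein list 18 of 19 genes were higher with N_2 than with CKI and none lower, and of the ATF4 and CHOP list 19 of 23 were higher and 3 lower, among them ATF3 (2.69) and DDIT3 (2.19) on the higher side. AKR1C1 (2.79) and FTH1 (1.87) were also higher, but over the whole NRF2 list 10 were higher and 14 lower.

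Of 17 cytokines tested, 13 were higher with N_2 than with CKI and 2 lower. IL1B stood at 20.05, 20.2 and 19.1 CPM with CKI (2.86), IL6 at 13.2, 19.4 and 19.3 CPM (2.23) and CXCL8 at 21.7, 22.95 and 21.3 CPM (2.24), the last 2 near their UT levels. CDKN1A (1.86), SNAI1 (2.52), CLDN1 (3.17) and HSPA5 (1.04) were higher with N_2 as well. HSPA5 did not stand for its list, as 12 of 21 ER genes were lower with N_2 than with CKI and 8 higher (median -0.37).

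Cell division genes were lower with N_2 than with CKI, 32 of 36 in the replication list and 32 of 36 in the mitosis list, against 0 and 3 higher. Among the 5 genes that were lowest relative to CKI were ITGA10, SPC24, MKI67 and BRIP1. ITGA10, an integrin alpha chain that binds collagen, stood at 29.9, 37.2 and 40.04 CPM with CKI and 1.08, 1.24 and 1.13 CPM with N_2 (-4.94 ± 0.15), while UT cells held 9.55, 9.11 and 9.1 CPM and so lay between them. MKI67 stood at 111, 121 and 131 CPM with CKI (-3.61), SPC24, a kinetochore protein, at 32.4, 34.7 and 33.1 CPM (-3.77) and BRIP1 at 19.01, 16.8 and 18.9 CPM (-3.54). TYMS (-3.39), CCND1 (-1.10), ACTB (-0.81), ACTG1 (-1.55) and CEMIP (-1.36) were lower with N_2 too, and 21 of 29 adhesion genes were lower against 1 higher.

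Some genes did not follow this order. CYP1A1 stood at 62.2, 59.9 and 60.5 CPM with CKI, above the 42, 37.8 and 41.5 CPM with N_2 (-0.59 ± 0.062), and CYP1B1 stood at 544, 527 and 544 CPM with CKI (-1.35). NQO1 was also lower with N_2 (-0.82). Over the whole AhR list, however, 6 of 10 genes were higher with N_2 than with CKI and 4 lower, with a median of 0.25. ANGPTL4 stood at 53.6, 49.02 and 47.9 CPM with CKI and 48.6, 50.8 and 49.9 CPM with N_2, and the 95% interval of the log2 difference ran from -0.14 to 0.12 (edgeR adjusted p = 0.9). The sterol exporter ABCG1 stood at 1.08, 1.5 and 1.84 CPM with CKI, below UT, and was higher with N_2 (4.64 ± 0.14), as was ABCA1, at 10.4, 8.13 and 11.6 CPM with CKI (2.39 ± 0.098). FASN was lower with N_2 (-0.28), and the largest adjusted p among the genes named as higher or lower in this comparison was 2.5e-05, for FASN, from edgeR's test.

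**Figure D4:**
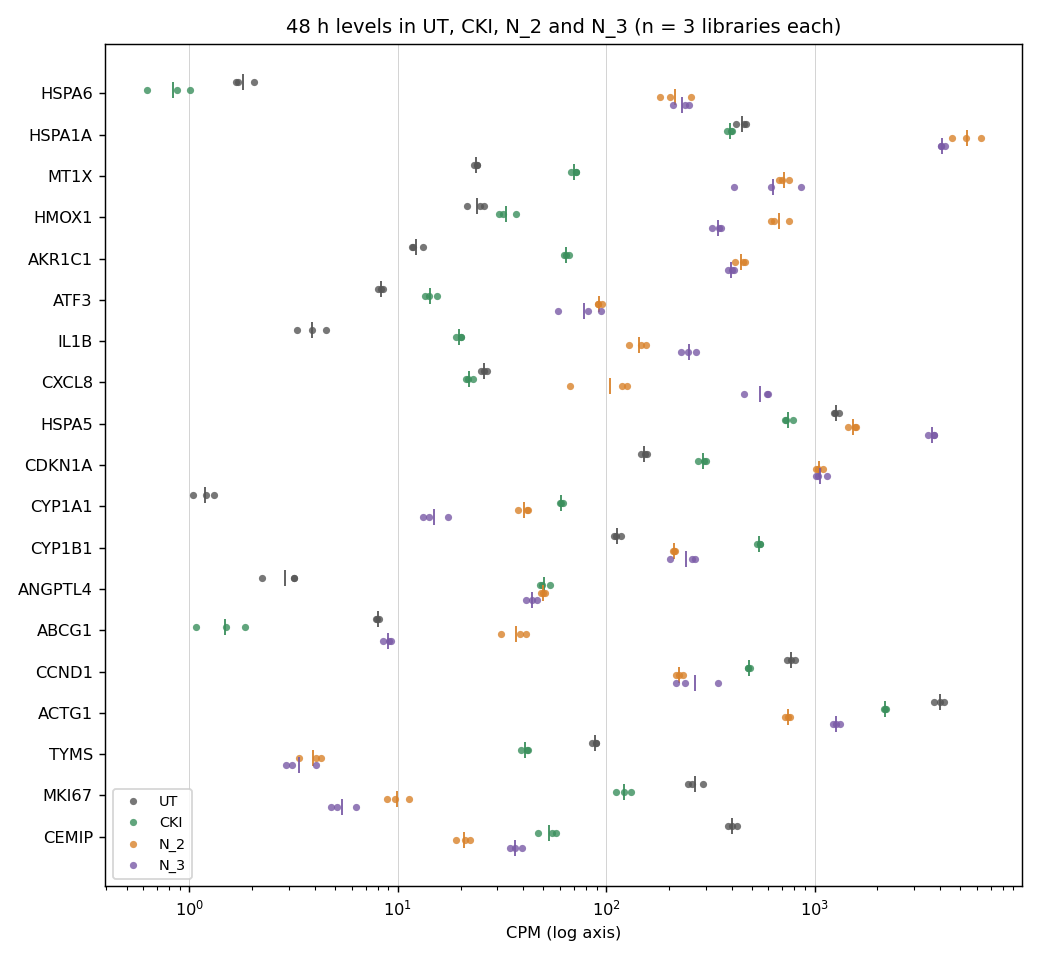
Level in CPM (log axis) of the genes named at 48 h in UT (grey), CKI (green), N_2 (orange) and N_3 (purple), with 1 point per library and a tick at each mean. For HSPA6 the N_2 and N_3 points lie at 182 CPM or above and the UT and CKI points at 2.05 CPM or below, whereas for ANGPTL4 the CKI and N_2 points overlap.

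N_3 differs from N_2 by the further loss of macrozamin, a glycoside of the toxin methylazoxymethanol, and was compared with N_2 in the same way. Here 5806 of 14824 genes (39.2%) were DE, 2894 (19.5%) higher and 2912 (19.6%) lower with N_2, and with library sizes alone in place of TMM the numbers were 3867 higher and 1752 lower. Without N_3 replicate 2, which stood apart, 7776 genes were DE, and without N_2 replicate 3 the number was 3813. With a log2 fold change of at least 1 in size 1201 genes (8.1%) were DE, of which 989 (6.67%) were higher and 212 (1.43%) lower with N_2.

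Cytokines were lower with N_2 than with N_3 in 14 of 18 cases and higher in 4. CXCL8 stood at 592, 457 and 601 CPM in the 3 N_3 libraries against 66.97, 119 and 126 CPM with N_2 (-2.41 ± 0.22). IL1A stood at 136, 124 and 166 CPM (-1.78), IL24 at 187, 168 and 241 CPM (-1.73), IL1B at 247, 229 and 271 CPM (-0.80) and IL6 at 142, 93.3 and 170.1 CPM (-0.74). All of these stood above UT in N_2 and higher again in N_3, with IL6 losing the call without N_2 replicate 1 (-0.62). Of 21 ER genes 19 were lower with N_2 and none higher. HSPA5 stood at 3743, 3751 and 3519.8 CPM with N_3 (-1.27 ± 0.12), PDIA4 at 520.3, 557 and 469 CPM (-1.62) and HSP90B1 at 1234, 853 and 1083 CPM (-1.26).

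The 5 genes lowest with N_2 relative to N_3 were CXCL8, G0S2, POU2F2, CD22 and IL1A. G0S2, an inhibitor of triglyceride lipase, stood at 346, 302 and 370.5 CPM with N_3 and 71.6, 91.1 and 77.6 CPM with N_2 (-2.09 ± 0.12), near the 85.3, 98.7 and 93.5 CPM of UT. The 5 highest were C1QL1, C11orf86, RAB17, ALPP and AQP3. AQP3, a channel for water and glycerol, stood at 10.8, 12.8 and 8.88 CPM with N_3 and 62.4, 51.9 and 62.98 CPM with N_2 (2.44 ± 0.14), and ALPP, placental alkaline phosphatase, at 39.2, 60.5 and 36.02 CPM and 271, 225 and 249 CPM (2.45 ± 0.18). The differences were 3.14 for C1QL1, 2.66 for C11orf86 and 2.58 for RAB17, a small GTPase of polarised cells, and -1.87 and -1.84 for POU2F2 and CD22, both known from B cells.

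Cell division genes were a little higher with N_2 than with N_3. In the mitosis list 25 of 36 were higher with none lower, and in the replication list 22 of 36 with 2 lower. Without N_3 replicate 2 the mitosis counts were 28 higher and 1 lower. MKI67 stood at 6.32, 4.78 and 5.1 CPM with N_3 (0.87) and CCNB1 at 21.1, 18.2 and 22.5 CPM (0.43), a call that was lost without N_2 replicate 2 (0.39). For TYMS the 95% interval of the log2 difference ran from -0.23 to 0.62 (edgeR adjusted p = 0.44). Of the heat shock and metallothionein list 4 genes were higher and 2 lower with N_2, and 13 of the 19 were not DE, but without N_3 replicate 2 the counts were 8 higher and 5 lower. HSPA6 stood at 248, 209.8 and 238 CPM with N_3, with a 95% interval of the difference from -0.42 to 0.16 (edgeR adjusted p = 0.45). HSPA1A was at the edge of the threshold (difference 0.38, edgeR adjusted p = 0.057), and was DE without N_3 replicate 2 (0.37). HMOX1 (0.96), CYP1A1 (1.43), ABCG1 (2.04), PER1 (1.26) and NR1D1 (0.52) were higher with N_2, and ACTB was lower (-0.54). Over the whole NRF2 list 4 of 29 genes were higher with N_2, 6 lower and 19 not DE. Without N_3 replicate 2 the NRF2 counts were 6 higher and 10 lower. Of 10 AhR targets 2 were higher, 2 lower and 6 not DE.

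Whether the effect of N_2 grew between 24 and 48 h was tested as an interaction over 12 libraries. The effect differed for 6258 of 15257 genes (41%), being more positive at 48 h in 2756 (18.1%) and more negative in 3502 (23%). For 2052 of them (13.4%) the difference reached 1 in size on the log2 scale, 1016 (6.66%) upward and 1036 (6.79%) downward. That split turned with library sizes alone, to 5397 more positive and 1603 more negative, a scaling that moved the median over all genes from -0.017 to 0.34, and the TMM factors of the N_2 libraries at 24 h were 0.783 to 0.860. Without N_2 replicate 3 at 24 h the effect differed for 8628 genes.

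The falls of the division genes were deeper at 48 h, in 21 of 36 mitosis genes and 20 of 36 replication genes, against 0 and 2 that were less deep. Without N_2 replicate 3 at 24 h the counts were 24 deeper with none less deep for mitosis, and 26 and 5 for replication. With library sizes alone they were 13 and 7 for mitosis and 16 and 5 for replication. MKI67 stood at 98.1, 136 and 47.1 CPM in the 3 N_2 libraries at 24 h and at 11.3, 8.86 and 9.74 CPM at 48 h, with UT at 249, 261 and 282 and 292, 258 and 246 CPM (-3.25 for the difference of the log2 fold changes). TYMS stood at 38.9, 40.7 and 17.9 CPM after 24 h of N_2 (-2.61) and CCNB1 at 60.9, 63.4 and 51.9 CPM (-0.58). In MKI67 and TYMS it was N_2 replicate 3 that was lowest of the 24 h libraries, nearer to the 48 h level than the other replicates. DNPH1, a nucleotide hydrolase, stood at 241, 239.7 and 103 CPM after 24 h of N_2 and 22.9, 20.4 and 23.9 CPM after 48 h (-3.04). Its log2 fold change at 48 h was -2.57, smaller in size than this difference, so that on average DNPH1 had not fallen at 24 h. SSTR2, a somatostatin receptor, stood at 78.2, 80.7 and 43.3 CPM after 24 h of N_2, above the 5.01, 7.1 and 7.02 CPM of UT, and was back near UT at 48 h (-3.30). RPPH1, the RNA of ribonuclease P, stood at 95.9, 131 and 23.99 CPM after 24 h of N_2 and at 5.11, 3.93 and 4.73 CPM after 48 h, with UT at 2.56, 3.14 and 2.14 and 1.2, 1.66 and 1.44 CPM, so that it came down but stayed above UT (-3.31).

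Other genes had a more positive effect at 48 h, and not all of them had risen at 24 h. GADD45G stood at 6.85, 6.02 and 26.3 CPM after 24 h of N_2 (2.72) and S100P at 4.94, 3.7 and 15.6 CPM (2.36), with the call of S100P (edgeR adjusted p = 0.046) lost without any of 8 of the 12 libraries. RGL3 lay below UT at 24 h and above it at 48 h, from 13.7, 10.3 and 14.2 CPM in UT and 3.7, 4.69 and 5.51 CPM in N_2 at 24 h to 10.4, 10.1 and 13.5 and 14.7, 20.4 and 22.7 CPM at 48 h (2.21). IL6 stood at 14.8, 13.02 and 41.1 CPM after 24 h of N_2, with N_2 replicate 3 highest and UT at 20.7, 20.4 and 19.9 CPM (2.19). CDKN1A rose further, from 596, 493 and 661 CPM (0.91). HSPA5 went the other way, from 2251, 2015 and 2458 CPM after 24 h of N_2 against 739, 762 and 729 CPM in UT (-1.32), and 14 of 21 ER genes had a more negative effect at 48 h, with 9 under library sizes alone. The interaction for HSPA6 was 0.86 (edgeR adjusted p = 0.11), for IL1B 0.25 (adjusted p = 0.63) and for CYP1A1 0.85 (adjusted p = 0.056), none of them DE. Without N_2 replicate 3 at 24 h these 3 values were 1.19, 0.57 and 1.13, and all 3 were DE, as were NR1D1 and DDIT3. HBA1 and HBA2, near identical alpha globin genes, also ranked here (3.31 and 2.81), but they stood at 39.1, 39.7 and 54.9 and 43.9, 43.9 and 63.4 CPM in UT at 24 h and at most 0.138 CPM in UT at 48 h. A gene of red blood cells is not part of what the labels describe, and why the 24 h libraries held it was not tested.

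**Figure D5:**
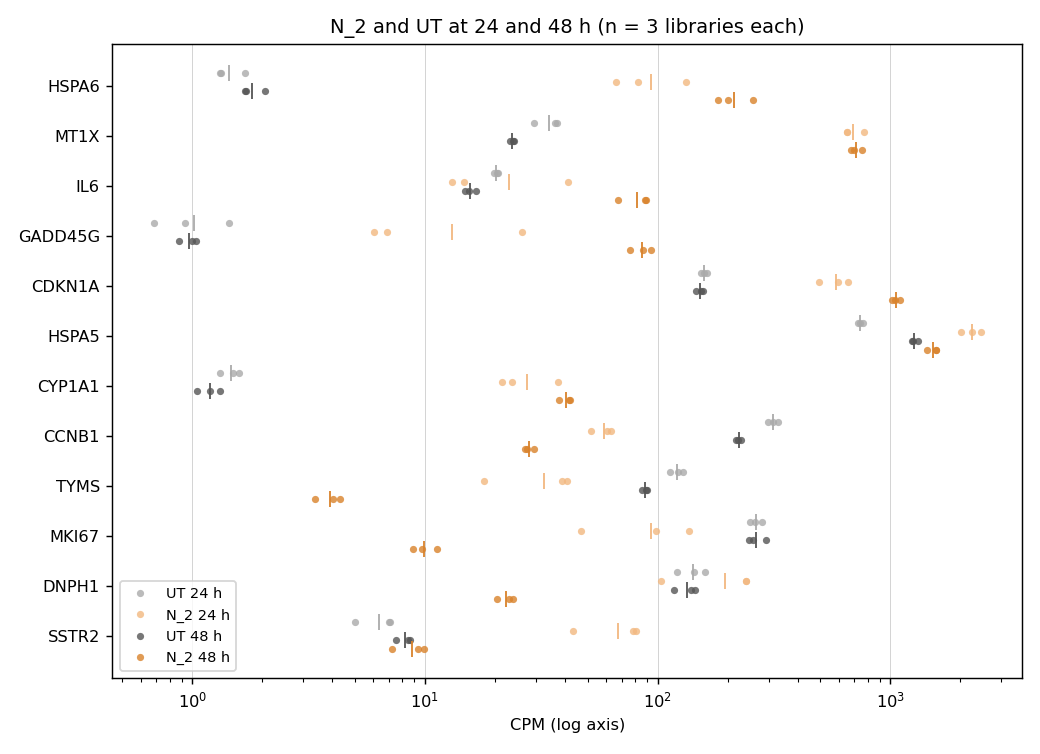
Level in CPM (log axis) of the genes named in UT at 24 h (light grey) and 48 h (dark grey) and in N_2 at 24 h (light orange) and 48 h (dark orange), with 1 point per library and a tick at each mean. MKI67 in N_2 lies at 47.1 to 136 CPM at 24 h and at 8.86 to 11.3 CPM at 48 h.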

How the data were processed

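RNA-seq read counts per gene in MDA-MB-231 cells were deposited as 1 table of 54 libraries and 27978 genes. Per the submitters' processing notes, the authors worked with FastQC 0.11.4, Trim Galore 0.3.7, STAR 2.5.3a, Subread 1.5.2 (featureCounts) and edgeR 3.22.3 on build hg19, and the deposited counts are whole numbers that had not been normalized. Groups came from the labels, which call the 3 libraries of a group biological replicates. Each comparison was fitted on its own libraries with edgeR 4.0.16 in R 4.3.3, with filterByExpr (minimum count 10), TMM factors and the quasi-likelihood test, and p-values were adjusted by Benjamini-Hochberg over all genes tested with a threshold of 0.05. Levels in CPM used TMM factors over the 36 libraries of batch 1. Values after ± are SE for log2 fold changes, taken from the estimate and its F statistic, and SD for CPM. The replicate numbers did not pair the N_2 and UT libraries at 48 h, with correlations of -0.051, -0.034 and 0.071 between those of the same number. Values for other groups are given further below.

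Named genes were the 12 largest rises and falls among genes averaging 10 CPM or more, DE in the full fit and without each library in turn and without overlap of the groups, up to 4 DE members of each list with at least 5 CPM and the largest changes, up to 2 more per list, the study's core genes with ACTB, and the 5 largest differences each way in the other comparisons. The members and lists were chosen with earlier results of these data known, and subgroups of the lists (such as metallothioneins or sterol enzymes) and gene families were written after the first fit had been seen. The alternatives were RLE size factors, library sizes alone, DESeq2 1.42.0, other filters, a block for the replicate number, all libraries of a time in 1 fit and leaving out each library. The scripts were tested on simulated data. Promoters were taken from a RefSeq table on GRCh38.p14, whose coordinates were not mixed with the hg19 counts. Some genes that the rule names, and a list tied to such a gene, are not reported here.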

Additional observations from a re-analysis of the deposited data

Results flagged for a closer look

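The effect of N_2 differed between 48 and 24 h, by edgeR's quasi-likelihood test of the interaction at an adjusted p under 0.05, for 116 of the 192 genes named. It was more positive at 48 h in 41 and more negative in 75. The values that follow are the log2 fold change at 48 h minus that at 24 h, over 3 libraries in each of 4 groups. The third N_2 library at 24 h stood apart from its replicates. Without it all 116 were DE in the same direction, and SOCS3 (-0.50) and RAB17 (-0.59) moved by over 1.5 times. Library sizes alone in place of TMM moved the median of all genes by over 0.1, from -0.017 to 0.34, so that small values depend on the scaling.

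AhR targets gave 0.66 for TIPARP and -0.43 for NQO1. ER chaperones and folding genes gave 0.93 for ERN1, -0.48 for PDIA4, -0.51 for XBP1, -1.06 for HSP90B1 and -1.32 for HSPA5. ATF4 and CHOP genes gave 1.40 for ATF3 and -0.29 for SESN2. DNA replication genes gave -0.57 for ORC1, -0.93 for PCNA, -1.64 for RRM2, -2.61 for TYMS and -2.83 for GINS2. Mitosis and spindle genes gave -0.58 for CCNB1, -1.31 for PLK1, -1.57 for KIF20A, -1.58 for CDK1, -1.72 for TOP2A and -2.43 for BIRC5. G1 cyclins and CDK inhibitors gave 0.92 for MYC, 0.91 for CDKN1A, -1.23 for CCND1 and -1.32 for CDKN2C. Homologous recombination and Fanconi genes gave -1.0 for EXO1 and -1.27 for BRIP1. BCL2 family and death receptors gave 0.67 for BCL2L2, 0.52 for TNFRSF10A and -0.61 for BCL2. Cholesterol and fatty acid synthesis genes gave 1.01 for MSMO1 and -0.48 for FADS2. LXR and PPAR lipid targets gave 1.25 for ANGPTL4, 0.88 for ABCA1, 0.34 for PLIN2, -0.79 for ABCG1 and -1.61 for PDK4. Glycolysis and hypoxia genes gave -0.92 for PFKFB3, -1.23 for HIF1A, -1.43 for ENO1 and -1.43 for PFKL. Actin cytoskeleton and SRF targets gave -1.32 for MYL9 and -1.58 for DIAPH3. Integrins and focal adhesion gave -0.54 for ITGB4, -0.67 for ITGB1, -0.81 for THBS1, -1.59 for PARVA and -2.02 for CAV1. YAP and TEAD targets gave -0.32 for YAP1, -1.17 for CRIM1, -1.32 for NT5E and -1.62 for AXL. Matrix proteases and hyaluronan genes gave 1.44 for MMP1 and -1.42 for CEMIP. Cadherins and EMT regulators gave 1.83 for SNAI1, 0.89 for CDH1, 0.47 for CLDN1, -0.52 for CLDN4, -0.61 for VIM, -1.16 for CTNNB1 and -1.48 for CDH11. TGF-beta, SMAD and ID genes gave 1.79 for ID2, -0.59 for TGFBR2 and -0.95 for LTBP2. Cytokines and chemokines gave 2.19 for IL6, 1.58 for IL1A and 1.35 for IL24. Cytokine receptors and JAK-STAT gave 2.13 for IL6R, 0.95 for STAT6, 0.48 for TNFAIP3, -0.77 for SOCS3 and -0.85 for JAK2. Interferon-stimulated genes gave 2.08 for RSAD2, 1.73 for ISG20, 1.36 for PARP9, -1.26 for BST2 and -1.42 for IFITM3. EGFR family and ERK output genes gave 1.41 for FOSB and -0.38 for DUSP6. Heat shock and metallothionein genes gave 1.78 for MT1F, 0.56 for MT1X, -0.44 for DNAJB1 and -0.52 for HSPA8. Ribosome biogenesis and MYC targets gave 0.97 for UTP20, 0.45 for CAD, -0.35 for BOP1 and -0.82 for NCL. Circadian clock genes gave 0.81 for PER1 and -1.68 for ARNTL. Drug efflux and phase II enzymes gave 0.68 for ABCG2 and 0.41 for ABCC5. Genes outside these groups gave 3.31 for HBA1, 2.81 for HBA2, 2.72 for GADD45G, 2.36 for S100P, 2.21 for RGL3, 1.32 for GADD45A, -0.77 for APC, -0.78 for AQP3, -0.90 for RAB17 and -1.10 for AKT1. Further genes gave -1.28 for SPC24, -1.39 for KDELC2, -1.51 for CLDN2, -1.58 for AQP5, -1.78 for SPC25, -1.85 for POU2F2, -1.88 for C11orf86, -1.97 for PLEKHS1, -2.35 for LGALS12 and -2.59 for FAM111B. Further genes gave 1.16 for FTH1, 1.08 for GLA, -3.04 for DNPH1, -3.25 for MKI67, -3.30 for SSTR2 and -3.31 for RPPH1.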

How the results depend on the processing

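The 4 counts of DE genes stayed within 1.5 times of those reported under other size factors, DESeq2, other filters, the replicate block and fits of all libraries of batch 1. For N_2 against UT the count ran from 11037 (genes averaging 1 CPM or more) to 13046 (no filter beyond 1 count). Asking also for a change of 1 or more in size on the log2 scale left 5015 genes for N_2 against UT, 4113 against CKI, 2052 for the difference between times and 1201 against N_3. Leaving out 1 library at a time gave 11664 to 12037 genes against UT, 11341 to 11603 against CKI, 5158 to 8628 between times and 3813 to 7776 against N_3. The lowest of the last range came without N_2 replicate 3 and the highest without N_3 replicate 2, and the highest between times without N_2 replicate 3 at 24 h.

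With the replicate block the counts were 11920 against UT, 11869 against CKI, 6050 between times and 4879 against N_3. Deviations from group means correlated at 0.133, 0.094 and 0.122 between same-numbered N_2 libraries at 48 and 24 h. Those of different numbers ran from -0.102 to -0.00057. Between N_2 and CKI at 48 h the same-numbered values were 0.223, 0.065 and 0.040, and the others ran from -0.165 to 0.135. In each other pair of groups looked at, some same-numbered values were negative. Whether the numbers pair the libraries in the first 2 cases was not tested.

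Of 2495 values of 192 genes for N_2 against UT under these settings, 2463 kept direction and call, 25 lost the call, 2 gained it and 5 changed sign. Of 1186 values of genes in the other comparisons, 1144 kept both, 20 lost the call, 17 gained it and 5 changed sign, all 5 of ANGPTL4 against CKI. Those that changed sign were not DE in any of these fits. Of 780 counts of list members higher or lower in N_2 against UT, 14 moved by over 1.5 times. HSPA8 was 0.014 with library sizes alone and 0.0032 without N_2 replicate 3, with a range of -0.11 to 0.0032 on leaving out a library. PIK3CA was 0.026 with library sizes alone and ranged over -0.11 to 0.0091. ANGPTL4 against CKI was 0.0098 with RLE size factors, 0.0098 with DESeq2 and 0.018 with a mean of at least 1 CPM, and ranged over -0.045 to 0.035. For N_2 against UT, calls lost in some settings were those of YAP1, APC, G0S2, XBP1 and ORC1, and SRF and CDH1 each gained one in 1 setting. The cause of these changes was not tested. With library sizes alone, 77.1% of the DE genes between times were more positive at 48 h, against 44.0% as reported, and 68.8% of those against N_3 were higher, against 49.8%, with medians over all genes of 0.34 and 0.13. Under that scaling the larger direction turned in 9 lists between times and 6 against N_3. Between times, the counts higher and lower went from 4 and 15 to 8 and 7 for integrins, 3 and 7 to 7 and 3 for NRF2 targets, 3 and 7 to 8 and 2 for EGFR and ERK genes, 6 and 9 to 8 and 5 for the BCL2 family, 2 and 5 to 4 and 3 for homologous recombination, 11 and 49 to 27 and 25 for the migration list, and also turned for the lipid target, protease and cadherin lists. Against N_3 they went from 28 and 46 to 35 and 29 for the migration list, 1 and 3 to 8 and 2 for YAP targets, 4 and 6 to 6 and 3 for NRF2 targets, and also turned for the BCL2, protease and cadherin lists. Without N_2 replicate 3 at 24 h the protease list between times turned from 4 and 6 to 11 and 7, and with DESeq2 the ATF4 and CHOP list from 5 and 3 to 4 and 5. Without N_3 replicate 2 the YAP targets against N_3 turned from 1 and 3 to 5 and 4.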

Other observations

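Gene families that the lists did not cover were counted by symbol after the first results had been seen, and 80.4% of all genes tested were DE. Histone genes of the HIST family had the highest median of these families, 2.08, with 24 of 31 tested genes higher after 48 h of N_2 and 1 lower. Their usual transcripts lack a poly(A) tail and were read here from poly(A)-selected RNA, and many are close copies, so their values are uncertain. Small nucleolar RNA host genes were higher in 15 of 21 cases with none lower, and SNHG17 and SNHG3 led them. Long intergenic noncoding RNAs were higher in 119 of 219 cases and lower in 52, antisense RNAs in 193 and 63 of 346, and zinc finger genes in 260 and 83 of 460, with medians of 0.65, 0.64 and 0.43. Dual specificity phosphatases, which switch off MAP kinases, were higher in 16 of 20 cases and lower in 3, and Kruppel-like factors in 11 of 16 and 2. Subunits of the V-ATPase, the proton pump of lysosomes, were higher in 14 of 21 cases and lower in 4, with a median of 0.56.

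Respiratory complex I went the other way, with 28 of 37 subunits lower after N_2 and 2 higher and a median of -0.61. Mitochondrial ribosomal proteins were lower in 43 of 77 cases and higher in 19, and cytosolic ribosomal proteins in 44 of 81 and 9, with medians of -0.29 and -0.18. Centromere proteins were lower in 15 of 21 cases and higher in 1, and kinesins, the motors of which many serve the spindle, in 17 of 32 and 6. DNAJ co-chaperones were lower in 21 of 39 cases and higher in 13, although DNAJB1 rose.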
